A study of Mus musculus with 6 samples.

Results

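The genes described are the 10 that encode the ring of the cohesin complex and the proteins that place it on chromatin or take it off: *Rad21*, *Smc1a*, *Smc3*, *Stag1*, *Stag2*, *Nipbl*, *Mau2*, *Wapal* (the older symbol of *Wapl*), *Pds5a* and *Pds5b*. They were taken by symbol and function, with no threshold on a measured value, and all 10 were found among the 23420 gene symbols of the count files. RNA-seq libraries had been made from mouse embryonic stem cells (ESCs) of the E14 line, of 2 genotypes, WT (wild type) and *Patz1* -/- (KO), with 3 libraries each. Both genotypes were grown with LIF and inhibitors of MEK (PD0325901) and GSK3 (CHIR99021). The KO was made by transfecting WT E14TG2a cells with a guide RNA in PX459, a plasmid that also carries Cas9 and puromycin resistance, followed by the genotyping of single clones. How many clones the 3 KO libraries came from is not given in the sources used here. The study calls its ESC RNA-seq libraries biological replicates, and the labels do not say whether they came from separate cultures or clones, so p-values measure only the spread between these libraries, part of which may be technical. The comparison asks whether the RNA of cohesin genes, its loaders in particular, differed between the genotypes, and the proportions of the subunits ask whether their balance differed.

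Cohesin is a ring that encircles DNA. SMC1A and SMC3 form its arms, RAD21 closes it, and STAG1 or STAG2, only one of which is present in a given complex, binds RAD21. NIPBL and its partner MAU2 load the ring and stimulate the extrusion of DNA loops, WAPL releases it, and PDS5A or PDS5B binds RAD21 and serves both release and protection. In ESCs, as in other cells, extruding cohesin stops at sites held by DNA-bound factors such as CTCF. PATZ1 is a zinc finger protein that binds G-rich DNA.

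One of the 10 genes was called different between the genotypes. *Smc1a* rose 1.40-fold in the KO, and the other 9 genes, both loaders among them, were not called. In bulk RNA, a change in the share of some cells and a change in RNA per cell cannot be told apart. At the adjusted p threshold of 0.05 used throughout, 7.49% of all genes tested were called, and 2.7% were called higher in the KO. For 2 of the 10 genes, *Smc1a* and *Stag2*, each KO library lay on the same side of every WT library, as it did for 25.6% of all genes tested. A separate test asked of each gene whether its change lay within 1.5-fold in either direction. It called 9 of the 10 genes within that bound, all but *Smc1a*, against 69.9% of the genes for which that test gave an adjusted p-value. The 10 genes were among the well-covered ones, with at least 766 raw counts each in the shallowest WT library. The median log2 fold change of the 10 genes was 0.05, that of the 9 without *Smc1a* was 0.03, and that of all genes tested was 0.01.

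*Smc1a* lies on X, next to *Ribc1*, which runs the other way. In the GENCODE annotation the 2 genes do not overlap. The 132 bases between their starts lie at chrX:152016296-152016427 (GRCm38, plus strand, which is the strand of *Smc1a*). These starts were taken from the promoter windows described below. The 132 bases are shown because the genes on both sides were called higher in the KO. The 250 bases before the start of *Smc3*, at chr19:53600146-53600395 (plus strand), are shown beside them because *Smc3* encodes the other arm of the ring and was not called. Capitals mark the GC box (GGGCGG), the CCAAT box (CCAAT) and the core of the ETS site (CGGAAG), each on either strand.
Smc1a-Ribc1: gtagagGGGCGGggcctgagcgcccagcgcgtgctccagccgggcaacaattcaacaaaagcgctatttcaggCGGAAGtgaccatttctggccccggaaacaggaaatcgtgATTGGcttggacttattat
Smc3: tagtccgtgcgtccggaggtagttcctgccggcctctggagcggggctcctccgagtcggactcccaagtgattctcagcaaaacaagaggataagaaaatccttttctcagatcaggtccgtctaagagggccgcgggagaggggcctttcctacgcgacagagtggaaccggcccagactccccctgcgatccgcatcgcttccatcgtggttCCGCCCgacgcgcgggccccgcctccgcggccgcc

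The stretch between *Smc1a* and *Ribc1* held 1 match to each of the 3 motifs, and none of the 3 overlapped another. The *Smc3* stretch held a single GC box and neither of the others. Promoter windows from RefSeq were found for 7 of the 10 genes, all but *Rad21*, *Stag2* and *Nipbl*, with 2 windows for *Mau2*. In the 250 bases before the start, the GC box was found for all 7 genes, in only 1 of the 2 *Mau2* windows. It was found in 32.7% of the 32851 windows of all genes. Member counts here are per gene while that share is per window, and the windows were not matched for GC content. The CCAAT box was found for 4 of the 7 (*Pds5b*, *Smc1a*, *Stag1* and *Wapal*), against 33.8% of windows. The ETS core was found for 4 (*Pds5a*, *Smc1a*, *Stag1* and *Wapal*), against 13.6%, and its letters can overlap those of a GC box. GGGAGGG, a G-rich heptamer of the kind bound by MAZ and PATZ1, was in the windows of 0 of the 7 genes and in 19.7% of all windows, which says only that these letters are not in these stretches. These motifs were chosen with the sequences in view.

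Library depth was uneven in the same way in both genotypes. Total counts ranged from 37573923 to 47721070 in replicates 1 and 2, and were 11040756 and 11420268 in replicate 3 of WT and KO. The ribosomal precursor *Rn45s* took 12.5% to 14.4% of the counts in replicate 3 and 1.79% to 3.03% elsewhere. *Patz1*, the targeted gene, had 1838, 1983 and 1843 normalized counts in WT and 853, 862 and 862 in KO (log2 fold change -1.14, DESeq2 adjusted p = 1.58e-26), so its RNA was lower in every KO library and still present. *Patz1* lies on chromosome 11, and with the regional centring described below its log2 fold change was -0.87. Of 8 ESC markers, 7 were not called. *Dppa5a*, an ESC-enriched gene, was the called one and rose from 35158 to 45653 normalized counts (log2 fold change 0.38, adjusted p = 0.00223). All 8 together, *Dppa5a* included, summed to 150024 to 158509 normalized counts in WT and 170103 to 176061 in KO. The 6 fibroblast markers summed to 112 to 131 normalized counts in WT and 150.1 to 182 in KO, and 7 markers of differentiated cells to 318 to 455 and 283.5 to 383. Of these 13 markers, 10 had an adjusted p-value and 1 was called, *Thy1*, which rose from 72.5 to 130 normalized counts (adjusted p = 0.0147) and made up most of the fibroblast sum. *Col1a1*, *Col1a2* and *Pdgfra* were at 11.5, 10.8 and 26.5 normalized counts in WT and 9.16, 6.49 and 17.6 in KO, and the median log2 fold change of the 6 fibroblast markers was -0.37. *Col3a1* went the other way, at means of 0.19 normalized counts in WT and 1.28 in KO, both near the floor. *Dcn*, a defining fibroblast marker, had a count of 0 in each KO library and in 1 WT library, and *Foxa2*, a definitive endoderm gene, had 0 in each WT library and 4.15 to 12.4 normalized counts in KO. The part of these markers in the results was not tested.

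Of the genes of the 2 SMC arms, *Smc1a* was called and *Smc3* was not, and the difference between them was tested as a ratio of the 2. *Smc1a* (chrX:152016428-152062694, plus strand) had 5581, 5383 and 6451 normalized counts in the 3 WT libraries and 8132, 7722 and 8523 in the 3 KO libraries. Each KO library stood above every WT library. The mean went from 5805 ± 568 to 8125 ± 401 (SD, n = 3), a log2 fold change of 0.49 with a standard error (SE) of 0.10, a 95% interval of 0.29 to 0.69 and a DESeq2 adjusted p of 9.60e-05. Within pairs of libraries with the same replicate number, the KO library was higher by 0.54, 0.52 and 0.40 on the log2 scale. Its upper limit, 1.61-fold, lay outside the 1.5-fold bound, and the separate test did not call *Smc1a* within that bound (adjusted p = 0.200). *Smc3*, the partner arm, had 6749, 6264 and 6136 normalized counts in WT and 7106, 6903 and 6358 in KO, and the genotypes overlapped. Its log2 fold change was 0.09 (95% interval -0.09 to 0.27), and it was called within 1.5-fold (adjusted p = 7.35e-07).

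*Rad21*, the kleisin that closes the ring and the subunit most often used to map cohesin on chromatin, was among the steadiest of the 10 genes. It had 6195, 6496 and 6325 normalized counts in WT and 6329, 6518 and 6562 in KO. The genotypes overlapped, and the coefficient of variation among libraries was 2.38% in WT and 1.91% in KO. The log2 fold change of *Rad21* was 0.03 (95% interval -0.14 to 0.19), and the gene was called within 1.5-fold (adjusted p = 9.49e-09).

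The STAG subunits bind RAD21 as alternatives to each other. *Stag1* had 4099, 4144 and 4225 normalized counts in WT and 4145, 4318 and 4183 in KO, with a log2 fold change of 0.02 (95% interval -0.15 to 0.19). The genotypes overlapped for *Stag1*, and its WT libraries varied least of the 10 genes, with a coefficient of variation of 1.53%. *Stag2* (chrX:42149317-42277185, plus strand) had 2495, 2611 and 2774 normalized counts in WT and 2980, 2805 and 3108 in KO. Each KO library of *Stag2* was above every WT library, the nearest being KO replicate 2 and WT replicate 3. The mean of *Stag2* went from 2627 ± 140 to 2964 ± 152 (SD, n = 3). This did not pass the test (log2 fold change 0.18, 95% interval -0.01 to 0.37, adjusted p = 0.357), and *Stag2* was called within 1.5-fold (adjusted p = 4.72e-05).

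**Figure D1:**
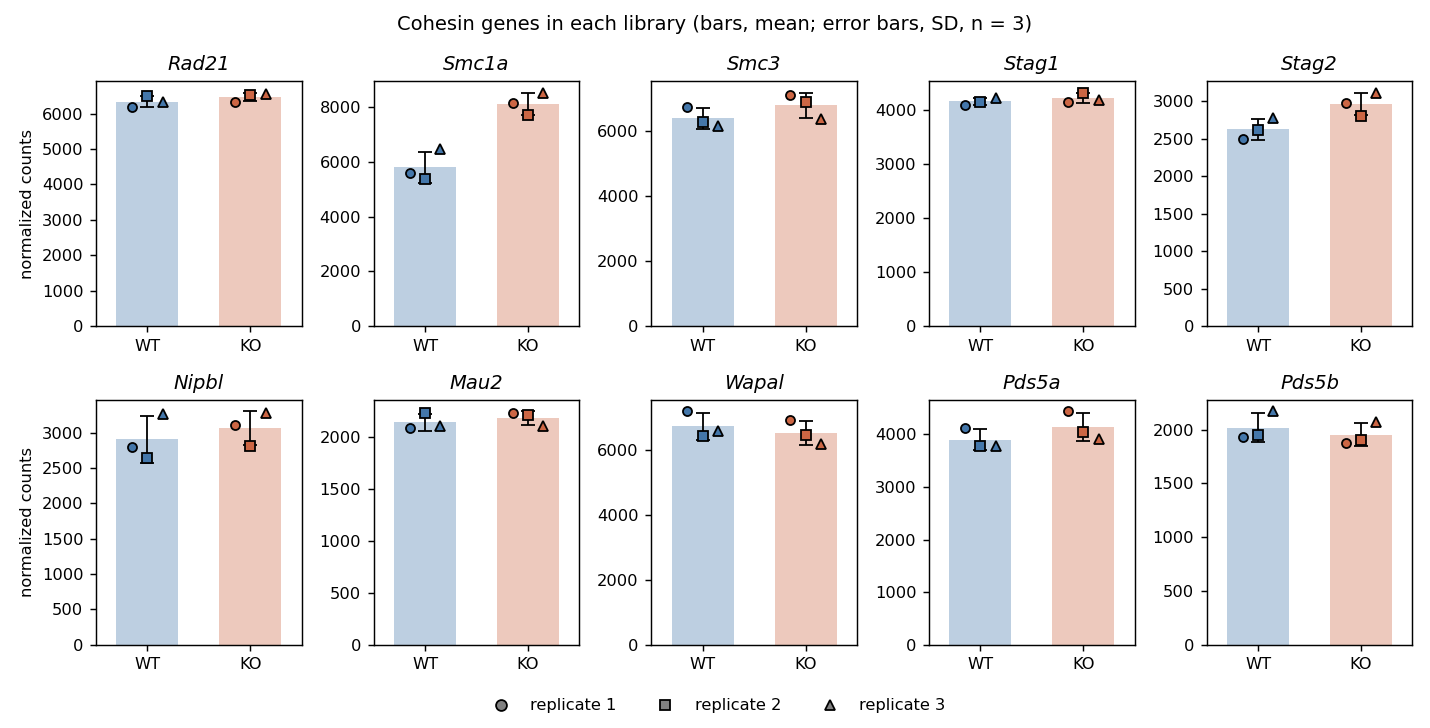
Normalized counts of the 10 cohesin genes (vertical axes, from 0) in WT and KO libraries. Bars are means, error bars are SD over 3 libraries, and symbols mark the replicate number. *Smc1a* has its 3 KO libraries at 7722 to 8523, above its WT libraries at 5383 to 6451, *Stag2* is also separated, by a narrow gap, and the genotypes overlap in the other 8 panels.

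The loaders were not called different. *Nipbl*, which encodes the loading and extrusion factor, had 2802, 2642 and 3269 normalized counts in WT and 3107, 2812 and 3282 in KO. Replicate 3 was the highest library of *Nipbl* in both genotypes, and the genotypes overlapped. The log2 fold change of *Nipbl* was 0.08 with an SE of 0.11 (95% interval -0.14 to 0.30, adjusted p = 0.838), and the interval in folds ran from 0.907 to 1.23. *Mau2*, the gene of its partner, had 2083, 2231 and 2097 normalized counts in WT and 2223, 2208 and 2101 in KO, also with overlap. Its log2 fold change was 0.03 (95% interval -0.16 to 0.21, adjusted p = 0.941). Both loaders were called within 1.5-fold, with adjusted p-values of 2.09e-05 for *Nipbl* and 8.62e-08 for *Mau2*. At a tighter bound of 25% above WT and the matching fold below it, *Mau2* was still called (adjusted p = 0.0315) and *Nipbl* was not (adjusted p = 0.0570). *Smc1a* and *Stag2* were the others not called within it, which left 7 of the 10 genes inside, against 24.4% of the 8983 genes for which that test gave an adjusted p-value. With the replicate number as a block, an alternative chosen after the data were seen, 9 of the 10 genes were called within this tighter bound, against 31.3% of the 14194 genes given an adjusted p-value in that fit, a larger set than without the block. *Nipbl* (adjusted p = 0.00167) and *Stag2* (adjusted p = 0.0497) were then called within it and *Smc1a* was not. The log2 fold change of *Nipbl* in that fit was 0.09 (95% interval -0.04 to 0.22). That of *Stag2* was 0.18 (95% interval 0.04 to 0.31, which leaves out 0).

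The release factor and its partners were not called either. *Wapal* had 7180, 6405 and 6563 normalized counts in WT and 6900, 6451 and 6165 in KO, and the genotypes overlapped (log2 fold change -0.05, 95% interval -0.23 to 0.14). *Pds5a* had 4128, 3781 and 3781 in WT and 4444, 4055 and 3922 in KO, again with overlap (log2 fold change 0.09, 95% interval -0.10 to 0.28). *Pds5b* had 1930, 1949 and 2171 in WT and 1874, 1906 and 2072 in KO, with overlap (log2 fold change -0.05, 95% interval -0.25 to 0.15). Each of the 3 was called within 1.5-fold, with adjusted p-values from 2.05e-07 to 1.61e-06. The direction of *Wapal* and *Pds5b* was not stable when 1 library was left out. Without WT replicate 1 the log2 fold change of *Wapal* was 0.0051, and without WT replicate 3 that of *Pds5b* was 0.00070. Within same-numbered pairs, *Wapal* differed by -0.06, 0.01 and -0.09 on the log2 scale, and *Pds5b* by -0.04, -0.03 and -0.07.

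To compare levels between genes, normalized counts were divided by the exon length of each gene in kilobases (kb). In WT, the order by level per kb was *Rad21* (1498), *Smc3* (1316), *Smc1a* (1237), *Wapal* (1058), *Stag1* (635), *Pds5a* (436), *Mau2* (397), *Stag2* (392), *Nipbl* (308) and *Pds5b* (244). The libraries of *Smc3* and *Smc1a* overlapped, as did those of *Mau2* and *Stag2*, so neither pair of neighbours could be ordered. The other neighbours in the WT order did not overlap. *Rad21* and the SMC genes thus stood highest, and *Stag2*, *Nipbl*, *Mau2* and the *Pds5* genes stood lowest. In the KO, *Smc1a* stood first, at 1732 ± 85.4 normalized counts per kb, above *Rad21* at 1529 ± 29.2 and *Smc3* at 1400 ± 79.7 (SD, n = 3), with no overlap between these 3. *Stag2* (443) stood above *Mau2* (404) without overlap, the pair that could not be ordered in WT, and *Pds5a* and *Stag2* overlapped. The other genes from *Wapal* down kept their order. Of the summed level per kb of the 10 genes, *Smc1a* made up 16.4% ± 1.33 in WT and 21.1% ± 0.975 in KO. The share of *Rad21* was 19.9% ± 0.812 in WT and 18.6% ± 0.592 in KO, and that of *Nipbl* 4.09% ± 0.388 and 3.97% ± 0.286. Shares of one sum are tied to each other, so a higher share of one gene lowers the rest.

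Ratios between genes within a library do not depend on how that library was scaled, and 7 were set up from the structure of the complex. The ratio of *Smc1a* to *Smc3* in counts per kb was 0.855, 0.889 and 1.09 in WT and 1.18, 1.16 and 1.39 in KO. The genotypes did not overlap, and replicate 3 was the highest library in both. The KO ratio was 1.32 times the WT ratio (exact two-sided permutation p = 0.1, adjusted p = 0.350 over the 7 ratios). With 3 libraries against 3, 0.1 is the smallest p this test can give, so no ratio could pass the threshold.

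The ratio of *Wapal* to the sum of *Pds5a* and *Pds5b* was 1.62, 1.53 and 1.51 in WT, and 1.48 and 1.41 in KO replicates 2 and 3. KO replicate 1 lay 0.00599 below the lowest WT library, so this was the other ratio without overlap, by a narrow gap, and the genotypes overlapped when the length of the longest transcript replaced that of all exons. The KO ratio was 0.942 times that of WT (exact permutation p = 0.1, adjusted p = 0.350).

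The remaining 5 ratios overlapped between the genotypes. *Rad21* to *Smc3* was 1.14 ± 0.0769 in WT and 1.10 ± 0.0818 in KO (SD, n = 3). *Stag1* to *Stag2* was 1.62 ± 0.0615 and 1.46 ± 0.103, so that *Stag1* made up 61.8% ± 0.897 of the pair in WT and 59.3% ± 1.68 in KO. The sum of *Stag1* and *Stag2* to *Smc3* was 0.783 ± 0.0605 in WT and 0.778 ± 0.0557 in KO, so that the RNA of both alternative subunits together was below that of 1 ring arm per kb in both genotypes. *Nipbl* to *Mau2* was 0.779 ± 0.107 and 0.807 ± 0.0828, and *Pds5a* to *Pds5b* was 1.79 ± 0.184 and 1.97 ± 0.221. Exact permutation p-values of these 5 ratios ran from 0.2 to 1.0. Within pairs of same-numbered libraries, 5 of the 7 ratios differed in 1 direction in each of the 3 pairs. The 7 ratios share genes and are not independent, and this count was not tested. *Smc1a* to *Smc3* was higher in the KO by 0.47, 0.38 and 0.35 on the log2 scale, *Pds5a* to *Pds5b* by 0.15, 0.13 and 0.12, and *Nipbl* to *Mau2* by 0.06, 0.11 and 0.003. *Stag1* to *Stag2* differed by -0.24, -0.04 and -0.18, and *Wapal* to the *Pds5* sum by -0.12, -0.04 and -0.10. The exact sign-flip permutation p of each of these was 0.25, the smallest that 3 pairs can give. The ratio levels depend on the exon lengths used, while the comparison between genotypes depends little on them. Without a length correction, the WT ratio of *Nipbl* to *Mau2* was 1.36, above 1 in place of below it, and that of the STAG sum to *Smc3* was 1.07. The RefSeq model of *Mau2* ends further 3′ than the GENCODE model used here, so its level per kb is less certain than the others.

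**Figure D2:**
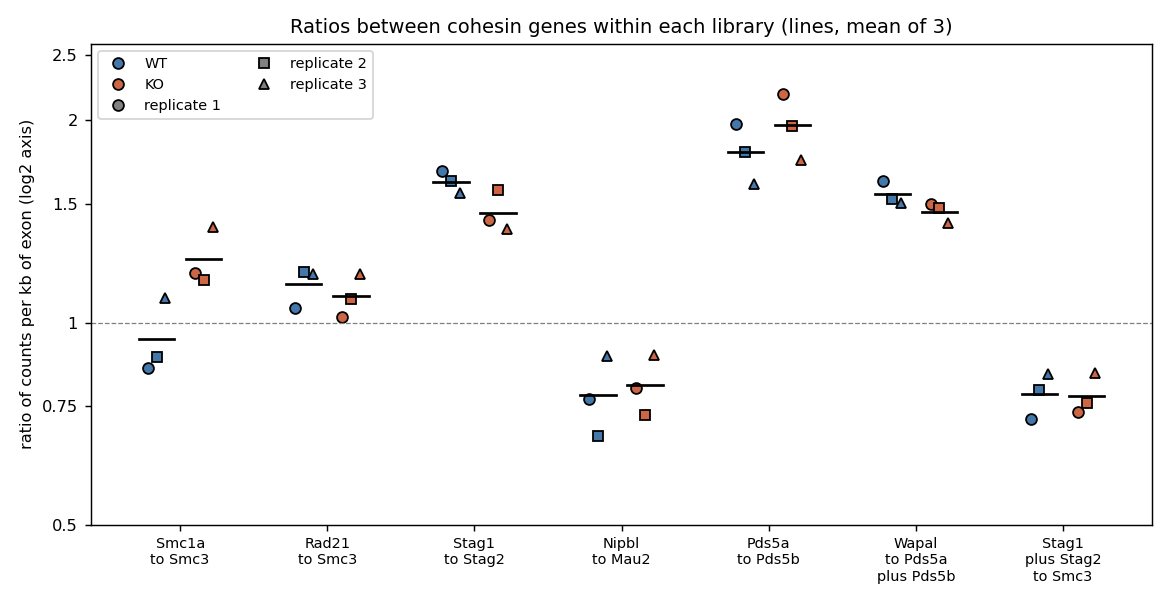
Ratios of counts per kb of exon between cohesin genes (vertical axis, log2 scale), computed within each library, with WT and KO side by side. Symbols mark the replicate number and lines the mean of 3 libraries. The ratio of *Smc1a* to *Smc3* lies at 0.855 to 1.09 in WT and at 1.16 to 1.39 in KO, the widest separation of the 7.

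*Smc1a* is not the only gene of its neighbourhood that was higher in the KO. Of the 5 tested genes on each side of it, all 10 had log2 fold changes above 0, from 0.16 to 0.56, and 4 were called. Of all 15309 genes tested, 7898 were above 0 and 7.49% were called. *Ribc1*, the divergent neighbour across the stretch printed above, had 205, 191 and 216 normalized counts in WT and 286, 276 and 346 in KO (log2 fold change 0.56, adjusted p = 0.0135), without overlap. The RefSeq gene *Ribc1* is longer than the GENCODE gene: its span crosses the printed stretch and reaches into *Smc1a* on the opposite strand. The libraries were stranded, but the strand setting of the counting is not given in the sources used here, so reads of the 2 genes may not be fully separated. *Phf8* (0.43), a histone demethylase gene, *Huwe1* (0.43), a ubiquitin ligase gene, and *Kdm5c* (0.38), a histone H3K4 demethylase gene, were called as well, with adjusted p-values from 0.0108 to 0.0298. *Hsd17b10* had 0.40 (adjusted p = 0.0639), and the remaining 5 neighbours, *Mir98*, *Iqsec2*, *2900056M20Rik*, *Tspyl2* and *Gpr173*, were not called.

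The part of X that begins at *Ogt* and holds *Smc1a* was known from earlier results of these data to be higher in the KO. Of its 237 genes tested, 41.4% were called higher, and the median log2 fold change was 0.42. The rest of X had a median of 0.03 over 329 genes, and all genes off X and chromosome 11 had a median of 0.02. *Smc1a*, at 0.49, was exceeded by 79 of the 237 genes of its region. As deviations from the mean of 6 libraries on a log2 scale of normalized count plus 1, the regional median was -0.36, -0.20 and -0.09 in WT and 0.20, 0.22 and 0.26 in KO. *Smc1a* itself stood at -0.30, -0.35 and -0.09 in WT and 0.25, 0.17 and 0.31 in KO, so the gene was near its regional median in most libraries. When the region was centred in each library, along with chromosome 11, the log2 fold change of *Smc1a* was 0.04. It was no longer called (DESeq2 adjusted p = 0.940). This left 0 of the 10 genes called and 0 with an unadjusted p under 0.05. The centring takes out the regional median, to which *Smc1a* contributes, of a region known from these data to be higher. A gene near that median loses most of its difference by construction. The lost call therefore does not test *Smc1a* apart from its region. Of all genes, 4.85% were called with this centring. The same centring with the replicate number as a block also left 0 called, against 10.8% of all genes, with 1 at an unadjusted p under 0.05, and *Smc1a* at 0.04 (adjusted p = 0.745). Genotype and clone cannot be told apart in this design.

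*Stag2* lies on the other part of X, before *Ogt*. Of the 5 tested genes on each side of it, 10 in all, whose starts lay at -3549 to 5763 kb from its own, 9 had log2 fold changes above 0, with a median of 0.19, and 1 was called. That gene was *Smarca1*, a chromatin remodeller gene, 5660 kb away, with a log2 fold change of 0.86 (adjusted p = 9.89e-10). Of all 15309 genes tested, 7898 were above 0. Of the 329 tested genes of X up to *Ogt*, 12 were called higher and 21 lower. The closest tested genes on either side of *Stag2* were *Xiap* at 0.08 and *Tenm1* at 0.10, and neither was called. *Thoc2*, *Mcts1*, *C1galt1c1*, *Gria3*, *Dcaf12l2*, *Dcaf12l1* and *Ocrl* were not called either. *Stag2* starts before *Ogt* and so lies outside the part of X described above, a boundary set with earlier results of these data known. The median of its neighbours, 0.19, was above the 0.03 of the 329 tested genes of X up to *Ogt*.

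**Figure D3:**
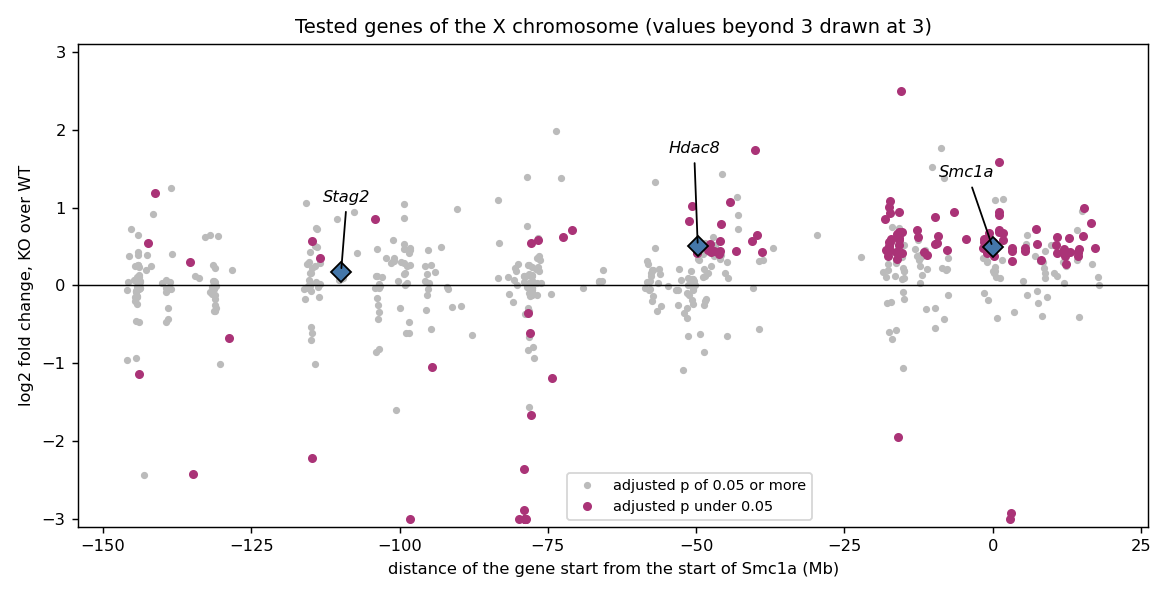
Log2 fold change of KO over WT (vertical axis) for the 566 tested genes of X against the distance of each gene start from that of *Smc1a* in megabases (horizontal axis). Coloured round points were called, diamonds mark *Smc1a* (0.49), *Hdac8* (0.50) and *Stag2* (0.18), and 11 genes beyond 3 are drawn at that limit. Called genes above 0 gather to the right of *Hdac8*, around *Smc1a*, and few are near *Stag2*.

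A further 20 genes act on cohesin: 4 of the acetylation cycle of SMC3, 6 of cohesion establishment, 6 of cleavage and protection at mitosis, and 4 of meiotic cohesin. Of the 20, 19 had an adjusted p-value, 1 was called, higher in the KO, against the 7.49% called among all genes. Their median log2 fold change was 0.01, and 16 were called within 1.5-fold, against 69.9% of all genes given that test. *Stag3*, *Smc1b* and *Hdac8* were tested and not called within 1.5-fold. The gene called different was *Stag3*, which encodes the meiotic counterpart of STAG1 and STAG2. It had 993, 830 and 884 normalized counts in WT and 1681, 1323 and 1541 in KO, so that each KO library was above every WT library. The mean of *Stag3* went from 903 ± 82.7 to 1515 ± 180 (SD, n = 3), a rise of 1.67-fold (log2 fold change 0.74, 95% interval 0.49 to 1.00, adjusted p = 7.14e-07).

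*Smc1b* and *Rec8*, of the other meiotic subunits, were not called. *Smc1b*, the meiotic counterpart of *Smc1a*, had 169, 124 and 140 normalized counts in WT and 99.3, 99.6 and 87.2 in KO. The genotypes did not overlap, and the log2 fold change of -0.58 missed the threshold (95% interval -1.02 to -0.15, adjusted p = 0.0922). *Rec8*, the meiotic kleisin, had 233, 263 and 216 in WT and 232, 241 and 206 in KO, with overlap (log2 fold change -0.07). *Rad21l*, another meiotic kleisin, had at most 5.48 normalized counts in any library, below the 8.21 that a floor of 3 counts represented in the shallowest library, and no comparison was made. *Gpc2*, the divergent neighbour of *Stag3* on chromosome 5, chosen after its values were seen, was at 199 and 186 normalized counts in WT and KO and was not called (log2 fold change -0.06, adjusted p = 0.948).

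In the acetylation cycle, *Esco1* and *Esco2*, the SMC3 acetyltransferases, and *Cdca5*, which encodes the WAPL antagonist sororin, had log2 fold changes between -0.07 and 0.07 and were called within 1.5-fold. *Hdac8*, the SMC3 deacetylase, lies in the same part of X as *Smc1a*. It had 168, 164 and 216 normalized counts in WT and 264, 236 and 259 in KO. The genotypes did not overlap, and its log2 fold change of 0.50 just missed the threshold (95% interval 0.16 to 0.85, adjusted p = 0.0561). Without WT replicate 3 its adjusted p was 0.0118, and without any other single library it was 0.122 to 0.379. With its region centred, as for *Smc1a*, the log2 fold change of *Hdac8* was 0.05 (adjusted p = 0.965).

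In cohesion establishment at the replication fork, *Dscc1*, *Chtf18* and *Chtf8* of the alternative clamp loader, the helicase gene *Ddx11* and *Timeless* were not called. *Wdhd1*, a replisome gene, had 2743, 2585 and 2790 normalized counts in WT and 3382, 3272 and 3055 in KO, without overlap. Its log2 fold change of 0.26 missed the threshold (95% interval 0.08 to 0.45, adjusted p = 0.0665), and it was called without WT replicate 3 (adjusted p = 0.0493) or KO replicate 3 (adjusted p = 0.0420). All 6 genes were called within 1.5-fold, though *Dscc1* was not without KO replicate 2 (adjusted p = 0.0508). The 6 genes of cleavage and protection, the shugoshins *Sgol1* and *Sgol2*, separase (*Espl1*), securin (*Pttg1*), *Plk1* and haspin (*Gsg2*), were not called, lay between -0.19 and 0.10 and were all called within 1.5-fold. The ends of that range, *Gsg2* (-0.19) and *Pttg1* (0.10), lie on chromosome 11, whose median deviation was 0.22, 0.11 and 0.07 in WT and -0.12, -0.13 and -0.15 in KO on the log2 scale. With chromosome 11 and the distal part of X centred, *Gsg2* was at 0.08 and *Pttg1* at 0.38, and neither was called (adjusted p = 0.885 and 0.338). *Pttg1* was then no longer called within 1.5-fold (adjusted p = 0.177), nor was it without WT replicate 1 (0.297), WT replicate 2 (0.175), KO replicate 2 (0.111) or KO replicate 3 (0.230).

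When the replicate number was used as a block, 14.6% of all genes were called, and the 10 cohesin genes gave the same single call, *Smc1a* (adjusted p = 2.48e-15), with *Stag2* at an adjusted p of 0.0624. Among the 20 associated genes, 3 were called with this pairing: *Stag3*, *Wdhd1* (adjusted p = 0.00164) and *Hdac8* (adjusted p = 0.0284). Regional centring with the same block also gave 3 calls, against 10.8% of all genes in that fit. *Pttg1* (adjusted p = 0.00615) was then in place of *Hdac8* (log2 fold change 0.05, adjusted p = 0.929).

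**Figure D4:**
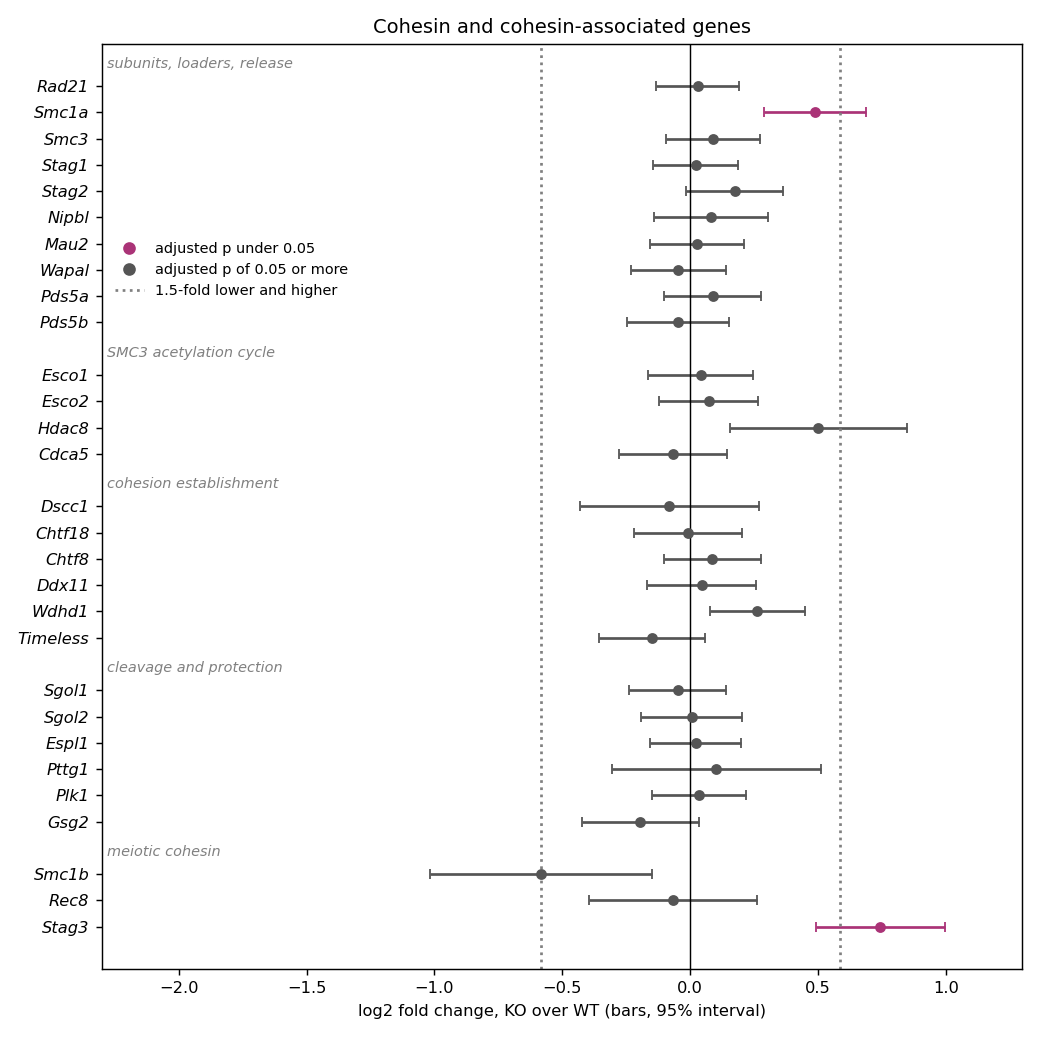
Log2 fold change of KO over WT (horizontal axis) for the 10 cohesin genes and 19 associated genes, by role, with 95% intervals as bars. Coloured points have an adjusted p under 0.05 and dotted lines mark 1.5-fold. *Smc1a* (0.49) and *Stag3* (0.74) are the coloured points, and *Rad21l* is not drawn.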

How the data were processed

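Raw read counts per gene symbol were deposited by the authors, one file per library, with no normalization. Per the study's methods, reads were mapped to mm10 with Bowtie 2. The submitters' processing notes name TopHat2 2.1.1, Bowtie2 2.3.1.0, featureCounts 1.6.2 and DESeq2 without their roles. The annotation and strand setting of the counting are not given in the sources used here. Genes were tested with the two-sided Wald test of DESeq2 (version 1.42.0; genotype alone, default filtering, no shrinkage) and Benjamini-Hochberg adjustment over all genes, and against a bound of 1.5-fold with its lessAbs hypothesis. Log2 fold changes are KO over WT. Ratios used exact permutation tests (SciPy 1.17.1). Exon lengths and positions came from GENCODE M21 (GRCm38, the build of mm10) and promoter windows from RefSeq (GRCm38.p6). No cohesin gene shares exon sequence with another counted gene in GENCODE. Alternatives used edgeR (4.0.16), limma-voom (limma 3.58.1), TMM, other filters, the replicate block, fewer libraries and regional centring. The genes named were the 10 cohesin genes, the associated genes that were called or are meiotic, *Patz1* and the 5 tested genes on each side of *Smc1a* and *Stag2*. Further associated genes were named by their lists. No measured threshold entered the choice of the 10 genes, but members and lists were chosen with earlier results of these data known.

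Same-numbered WT and KO libraries deviated together from their genotype means, with correlations of 0.469, 0.619 and 0.684 over 11524 genes, and the numbers come from the sample titles. No 2 libraries of a genotype agreed within sampling noise. Floors cover counting error only.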

Additional observations from a re-analysis of the deposited data

How the results depend on the processing

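*Smc1a* was the single cohesin gene called under each alternative except regional centring, alone or with the replicate block, where the count was 0. In these, which take the regional median out, its log2 fold change was 0.04, and over the other alternatives it stayed positive and called. Over those other alternatives, 3.8% to 14.6% of all genes were called. With 1 library left out, *Wapal* ranged from -0.091 to 0.0051 (the latter without WT replicate 1) and *Pds5b* from -0.086 to 0.00070 (the latter without WT replicate 3), neither being called anywhere. Of 150 refits of single cohesin genes, 146 kept direction and side of the threshold. The count within 1.5-fold was 9 or 10 throughout, with 7 at the bound of 25% (9 with the replicate block) and 10 at 2-fold. Of the genes given these tests, 69.9% were called within 1.5-fold in the main fit. At the bound of 25% the share was 24.4%, and 31.3% with the block. No share was taken at 2-fold, or at 1.5-fold in the other fits. The associated genes called numbered 2 with limma-voom, against 7.94% of all genes in that fit. They numbered 3 with the replicate block (*Stag3*, *Wdhd1* and *Hdac8*), against 14.6%. With the block and regional centring they also numbered 3 (*Pttg1* in place of *Hdac8*), against 10.8%. Without both replicate 3 libraries they numbered 3, against 8.77%. Leaving out 1 library gave 1 to 3 such calls, against 3.8% to 8.8% of all genes. There were 3 without WT replicate 3 (8.8% of all genes) and 2 without KO replicate 3 (6.5%). *Stag3* was called under every alternative run. *Gsg2* turned to 0.077 with regional centring and 0.076 with the block added. With 1 library left out, *Rec8* ranged from -0.12 to 0.015 and *Pttg1* from -0.12 to 0.36, none of them called. Replicate pairing changed no call of a difference in a cohesin gene.

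The ratios without overlap numbered 1 with longest transcripts and 2 to 3 with 1 library left out, *Stag1* to *Stag2* joining without WT replicate 3 or without KO replicate 2. *Rad21* to *Smc3* in WT was 1.22 with longest transcripts and 0.995 without length correction. Without length correction the WT ratios were 1.36 for *Nipbl* to *Mau2*, 1.14 for *Wapal* to *Pds5a* plus *Pds5b* and 1.07 for the STAG sum to *Smc3*. Leaving out 1 library turned the sign of 2 log2 differences: *Nipbl* to *Mau2* ranged from -0.042 to 0.16 and the STAG sum to *Smc3* from -0.068 to 0.044. The 1.5-fold bound was not tested with edgeR or limma-voom. The shallow replicate 3 libraries limit low genes such as *Rad21l*.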
